A study of Mus musculus with 248 samples.

Results

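The B cell genes described here are 34 genes listed by name for a known role in B lymphocytes, in a list drawn up with earlier results of these data known: 4 genes of the B cell receptor, 13 of other surface proteins, 8 of signalling proteins, 8 of transcription factors and cofactors, and Vpreb3, a homologue of the surrogate light chain. Of these, 33 were measured in both expression tables, which held 18508 genes in the training cohort and 13607 genes in the validation cohort. The delta heavy chain gene Ighd was not analysed here. RNA of peripheral blood had been sequenced repeatedly from mice in which acute myeloid leukemia develops after the fusion gene Cbfb-MYH11 is switched on. The CM mice carried Cbfb+/56M with Mx1-Cre on C57BL/6 (genotype CHW in the labels). Their Ctrl littermates carried Cbfb+/56M alone, Mx1-Cre alone or neither (coded CW, HW and WT in the labels). The labels do not say which code is which, but the fusion transcript, given below, stood highest in HW among the Ctrl mice. CM and Ctrl mice alike, of both sexes, were 4 to 8 weeks old when they were given 7 injections of poly(I:C), each of 14 mg/kg. Blood was taken before induction (month 0) and each month after it. There were 55 libraries of 7 CM mice and 77 of 7 Ctrl mice in the training cohort, and 68 of 13 CM mice and 48 of 8 Ctrl mice in the validation cohort. Of the validation libraries, 6 of CM mice carry the label of leukemia, and some mice were bled at weeks in place of months. The Mx1 promoter responds to interferon, which poly(I:C) induces, so that recombination is not limited to myeloid cells or to blood. Fewer CM mice have libraries at later months.

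B cells are made in the bone marrow, where Ebf1 and Pax5 commit precursors to the lineage, and they leave for blood and spleen as immature cells that carry IgM. The receptor is membrane immunoglobulin bound to the chains of Cd79a and Cd79b, and it signals through the kinases Blk and Btk, the adaptor Blnk and the phospholipase Plcg2. As the cells mature in the spleen they gain Fcer2a (CD23) on follicular cells and high Cr2 (CD21 and CD35) on marginal zone cells, while survival depends on the receptor for BAFF, Tnfrsf13c. Bcl11a and Btk are not restricted to B cells: Bcl11a is also found in blood progenitors and plasmacytoid dendritic cells, and Btk in myeloid cells.

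Stretches of 250 bases before a RefSeq transcript start are shown for 5 genes because these genes mark the ends of the responses described here. Vpreb3 and Cd79a differed in how far they fell, Fcer2a and Cr2 parted from each other after induction, and Btk was the member that was higher in leukemia. The sequences are from RefSeq on GRCm38.p6. They lie at chr10:75948050-75948299 (Vpreb3, plus strand), chr7:24897247-24897496 (Cd79a, plus strand), chr8:3694175-3694424 (Fcer2a, minus strand), chr1:195176720-195176969 (Cr2, minus strand) and chrX:134583141-134583390 (Btk, minus strand). Fcer2a has 3 such windows in the table, of which the most upstream is shown. For Cd79a and Fcer2a the transcript start is the outer end of the gene as listed, while for Vpreb3, Cr2 and Btk it lies inside the listed gene, 5276, 161 and 488 bases from its 5′ end. Capitals mark matches to 3 motifs searched on both strands: the octamer ATGCAAAT bound by Oct factors such as Pou2f2, the E box CAGGTG bound by E proteins, and the core GAGGAA bound by PU.1 and Spib.
Vpreb3: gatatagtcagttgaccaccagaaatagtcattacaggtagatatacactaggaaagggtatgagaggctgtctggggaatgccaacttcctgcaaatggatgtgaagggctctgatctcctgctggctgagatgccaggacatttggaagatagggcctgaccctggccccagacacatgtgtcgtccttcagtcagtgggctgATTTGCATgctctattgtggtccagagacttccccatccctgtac
Cd79a: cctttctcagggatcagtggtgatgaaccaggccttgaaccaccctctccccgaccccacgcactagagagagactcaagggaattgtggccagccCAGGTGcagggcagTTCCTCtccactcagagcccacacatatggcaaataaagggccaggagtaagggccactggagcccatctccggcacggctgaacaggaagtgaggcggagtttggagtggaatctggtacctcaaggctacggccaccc
Fcer2a: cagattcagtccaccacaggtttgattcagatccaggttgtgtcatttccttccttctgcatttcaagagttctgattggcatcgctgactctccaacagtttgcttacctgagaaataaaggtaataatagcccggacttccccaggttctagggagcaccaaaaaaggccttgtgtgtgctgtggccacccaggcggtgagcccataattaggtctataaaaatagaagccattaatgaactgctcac
Cr2: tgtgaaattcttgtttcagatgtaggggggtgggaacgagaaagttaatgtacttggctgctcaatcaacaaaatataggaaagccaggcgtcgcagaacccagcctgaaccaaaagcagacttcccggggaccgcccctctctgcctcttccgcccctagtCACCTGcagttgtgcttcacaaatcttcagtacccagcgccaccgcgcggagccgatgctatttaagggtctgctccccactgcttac
Btk: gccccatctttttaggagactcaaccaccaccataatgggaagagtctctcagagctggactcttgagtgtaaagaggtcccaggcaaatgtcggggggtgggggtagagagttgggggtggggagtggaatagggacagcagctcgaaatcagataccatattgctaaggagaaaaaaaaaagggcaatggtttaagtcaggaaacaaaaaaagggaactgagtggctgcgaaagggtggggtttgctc

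The window of Vpreb3 holds the octamer on the reverse strand, 45 bases before that transcript start. The window of Cd79a holds the E box 154 bases and the PU.1 core 140 bases before its transcript start, and the window of Cr2 holds the E box 88 bases before it, while the windows of Fcer2a and Btk shown hold none of the 3. A window was in the table for 28 of the 33 members. The octamer was in 2 of these 28 genes, Vpreb3 and Blnk (7.14%), against 1.81% of all 27025 genes. The E box was in 11 of 28 (39.3%), against 19.4% of all genes, and the PU.1 core in 12 of 28 (42.9%), against 25.9%. A match is a description of letters, and a window without one says only that these letters are not in it.

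Training libraries held 16 to 36.3 M reads, and validation libraries 8.68 to 34.4 M (megareads). Levels are log2 CPM (counts per megaread of the library, on a log2 scale), not scaled to gene length, so that levels are compared between samples and not between genes. In month 0 libraries the 33 members took 0.545 to 1.51% of the reads in training CM mice, 1.38 to 1.59% in training Ctrl mice, 0.817 to 1.63% in validation CM mice and 0.767 to 1.41% in validation Ctrl mice. RNA of the members, not all of which are restricted to B cells, was thus present in every month 0 library. The feature for the fusion transcript stood at 3.3 to 4.62 in 12 of the 13 validation CM mice. It stood at -3.67 in the mouse 2700, labelled CM. Among the Ctrl mice it stood at 3.09 to 3.17 in the 2 of genotype HW, against -6.3 to -4.07 in CW and -5.55 to -4.72 in WT. HW is thus the Ctrl code that goes with the fusion allele, and the feature checks the arm labels only in part. In the training cohort it was low, at -3.68 to -1.82 in the 7 CM mice and -6.52 to -4.32 in the 7 Ctrl mice. Of these Ctrl mice, those of genotype HW stood at -4.96 to -4.32 and the others at -6.52, the value of 0 reads. Mouse 2700 is given separately where a result rests on it. Late training libraries held much globin RNA, 4.21 to 38.5% of reads in Ctrl mice at month 10, and the median of all genes was as low as -0.38 in them. Validation libraries of months 0 and 1 and of leukemia were unstranded and those of the other months stranded, so that changes from month 0 to months 2 and 3 span both preparations, in both arms. In the labels of this cohort, each month and leukemia had a batch of its own, shared by the CM and Ctrl libraries of a month. Differences between its time points, leukemia against months 0 and 1 included, cannot be told apart from batch. No pair of libraries of a group agreed within sampling noise.

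At month 0, before induction, no member passed the test between the arms in either cohort. In the training cohort 0 of 33 members passed, against 0% of all genes (limma-trend, adjusted p under 0.05 over all genes), and 0 passed with limma-voom, although 16 had an unadjusted p under 0.05 and all 33 were nominally lower in CM mice. The median difference over the members was -0.44 on the log2 scale, against -0.04 over all genes. Cd79a ranged from 7.34 to 9.11 log2 CPM with a median of 8.84 in the 7 CM mice, against 8.90 to 9.21 with a median of 9.09 in the 7 Ctrl mice. The lowest CM library, of mouse 3334, also had an S100a8 level of 11.13, a neutrophil gene, and a member median of 6.95 where the next CM library had 8.08. In the validation cohort 0 of 33 members passed, again against 0% of all genes; 0 had an unadjusted p under 0.05, 0 passed with limma-voom, and the median difference over members was -0.01. Cd79a there ranged from 6.83 to 7.87 with a median of 7.55 log2 CPM in 10 CM mice, against 6.70 to 7.68 with a median of 7.52 in 6 Ctrl mice.

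**Figure D1:**
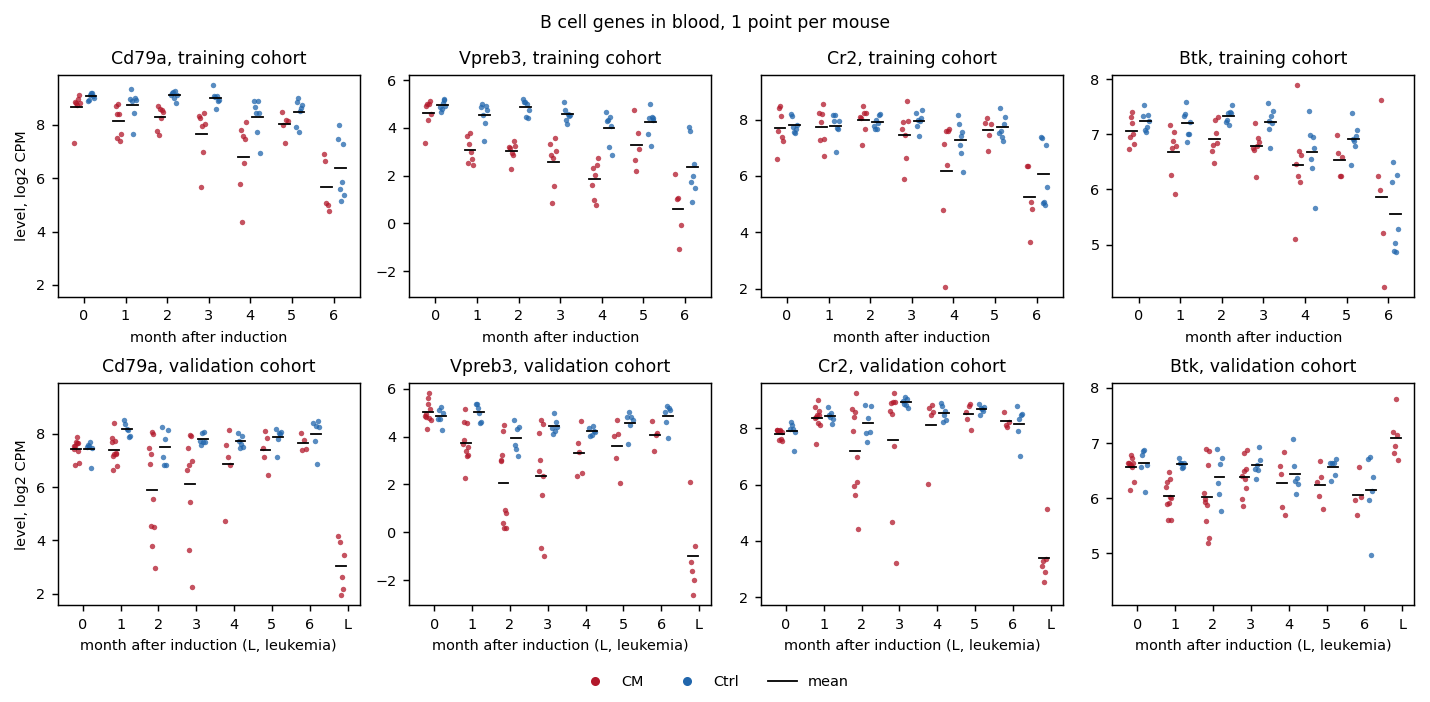
Level in log2 CPM of Cd79a, Vpreb3, Cr2 and Btk in each library by month after induction, for the training and the validation cohort, with CM mice to the left of Ctrl mice at each month and leukemia (L) at the right of the validation panels. Each point is a mouse; Vpreb3 in training mice at month 2 lies at 2.27 to 3.47 in CM and at 4.43 to 5.21 in Ctrl, and Btk in L libraries at 6.70 to 7.80 lies above its month 0 level in the same mice.

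At month 1 after induction, 5 of 33 B cell genes in the training cohort and 25 of 33 in the validation cohort were lower in the blood of CM mice, and Vpreb3 had the most negative difference in each cohort. In bulk blood, fewer B cells and less RNA per B cell cannot be told apart, here or in the later comparisons. No member was higher in the training cohort, and 1.34% of all genes were lower. The 5 lower members were Vpreb3, which binds the mu chain in developing B cells, the transcription factor Spib, the BAFF receptor Tnfrsf13c, the inhibitory receptor Cd72 and the phospholipase Plcg2. The 28 other members did not pass, and all had a negative estimate. The median difference was -0.62 over the members and -0.18 over all genes, where the member median at month 0 was -0.44.

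Vpreb3 in the training cohort at month 1 ranged from 2.44 to 3.80 with a median of 2.98 log2 CPM in 7 CM mice, against 3.45 to 5.02 with a median of 4.75 in 7 Ctrl mice. The groups overlapped only through the Ctrl mouse 3342, whose library also had the lowest Cd79a of the Ctrl arm, 7.65, and the highest S100a8, 11.71. The difference was -1.57 ± 0.28 (SE; adjusted p = 0.00434). Plcg2, which turns receptor signals into calcium release, was at 7.48 to 8.50 in CM mice and at 8.54 to 8.97 in Ctrl mice, without overlap, a difference of -0.70 ± 0.17 (adjusted p = 0.0281). Spib differed by -1.14 ± 0.27, Tnfrsf13c by -1.11 ± 0.30 and Cd72 by -0.96 ± 0.24. The count was 9 without Ctrl mouse 3342 and 8 without CM mouse 3334. It was 2 without CM mouse 3370 or Ctrl mouse 3339 or 3340, and 1 without CM mouse 3368 or Ctrl mouse 3349 or 3350. With the mouse as a replicate block over all months it was 1, against 0.276% of all genes, and also 1 with the library group as a further term, against 0.286%.

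In the validation cohort at month 1, 25 of 33 members were lower in CM mice, against 20.6% of all genes, and none was higher. By role these were 2 of 3 receptor genes, 9 of 13 surface genes, 6 of 8 signalling genes, 7 of 8 transcription genes and Vpreb3. The median difference was -0.61 over members and -0.09 over all genes. Vpreb3 ranged from 2.27 to 5.15 with a median of 3.62 log2 CPM in 10 CM mice, against 4.55 to 5.38 with a median of 5.10 in 6 Ctrl mice. The CM mice at the top of that range were 2700, at 5.15, 2685, at 4.60, and 2709, at 4.58, and they overlapped the Ctrl mice. The difference was -1.27 ± 0.34 (adjusted p = 0.0156). The lineage factors Pax5 and Ebf1 differed by -0.96 ± 0.24 (adjusted p = 0.0119) and -0.87 ± 0.21 (adjusted p = 0.00922), and Bach2, which holds back plasma cell fate, by -0.87 ± 0.18.

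Btk gave the lowest adjusted p of the members at this time. It ranged from 5.60 to 6.48 with a median of 6.02 log2 CPM in CM mice, against 6.54 to 6.72 with a median of 6.63 in Ctrl mice. All 10 CM mice, 2700 included, lay below all 6 Ctrl mice, with a difference of -0.59 ± 0.12 (adjusted p = 0.00558). Cd79a ranged from 6.65 to 8.40 with a median of 7.25 in CM mice, against 7.86 to 8.51 with a median of 8.14 in Ctrl mice, and 2700 at 8.40 was the CM mouse that lay inside the Ctrl range. Its difference was -0.76 ± 0.22 (adjusted p = 0.0194). The mu chain gene Ighm differed by -0.61 ± 0.19 (adjusted p = 0.0292). The 8 members that did not pass were Cr2, Rasgrp3, Pou2af1, Swap70, Cd40, Faim3, Cd79b and Ms4a1. Of these Cr2, the complement receptor, was at 7.46 to 8.99 with a median of 8.44 in CM mice, against 8.14 to 8.77 with a median of 8.43 in Ctrl mice, a difference of -0.06 ± 0.17 (adjusted p = 0.817).

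The count at month 1 in the validation cohort moved with single mice. It was 7 without Ctrl mouse 2683, 11 without Ctrl mouse 2689 and 15 without Ctrl mouse 2692, and 29 without CM mouse 2700. It was 12 with a median-ratio scaling, against 7.48% of all genes, and 1 with the mouse as a replicate block over all months, against 2.87%. Genes of red cell precursors also differed at this time, in the direction opposite to the B cell genes. All 10 of 10 erythroid genes were higher in CM mice, with a summed level of 10.72 to 12.59 log2 CPM, against 9.41 to 11.11 in Ctrl mice, and 8 of 14 stem and progenitor genes were higher and 2 lower. Of all 13607 genes, 1082 were higher and 20.6% lower. In the training cohort at month 1, 9 of 10 erythroid genes were higher, with a summed level of 10.94 to 14.30 in CM mice and 8.80 to 10.62 in Ctrl mice. Of all 18508 genes, 681 were higher there. Of the 15 T cell genes, 0 passed in the validation cohort, and 1 was higher and 0 lower in the training cohort. The part of red cell and progenitor RNA in the B cell result was not tested.

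Set against their own month 0, the validation mice gave a difference in the same direction. The change to month 1 was lower in CM than in Ctrl mice for 28 of 33 members, against 8.76% of all genes, with a median of -0.60 over members and -0.11 over all genes. Vpreb3 led with -1.45 ± 0.26 (adjusted p = 0.00486), followed by Spib with -0.94 ± 0.20 and Pax5 with -0.90 ± 0.18 (adjusted p = 0.00862). The members that did not pass included Cr2 at 0.03 ± 0.14, Rasgrp3 at -0.18 ± 0.14 and Pou2af1 at -0.27 ± 0.11. The count was 18 with a median-ratio scaling, against 1.87% of all genes. In the Ctrl mice themselves 9 of 33 members were higher at month 1 than at month 0, near the share of all genes higher, 25.7%. Only 1 was lower, against 7.58% of all genes lower, so that the counts do not set the members apart from other genes. Fcer2a was higher by 0.87 ± 0.15 and Cd79a by 0.75 ± 0.11 in them, and Cd72 was lower by 0.37 ± 0.10, a log2 difference of -0.37. The count of higher members was 5 with a median-ratio scaling (15.2% of all genes) and 3 without the replicate block (15.8%), and it was 3 without mouse 2683, 4 without 2689 and 5 without 2705. Months 0 and 1 were different batches, so that the change within Ctrl mice cannot be told apart from batch.

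The validation change from month 0 gave 0 of 33 lower members at months 2 and 3, each against 0% of all genes. Unadjusted p-values under 0.05 were found for 23 and 17 of them, and the median differences were -1.37 and -1.57. For training mice the same contrast called no member at months 1, 2 or 3, and the median differences were -0.21, -0.19 and -0.64. The change from month 0 gave 0 of 33 lower members at month 1 (0.2% of all genes lower), 0 at month 2 (0.162%) and 0 at month 3 (0%). At an unadjusted p under 0.05 there were 2, 6 and 5 members at months 1, 2 and 3. Without CM mouse 3334, whose month 0 library was low in B cell genes, the count was 3 at month 1 and 3 at month 2. In that mouse the median of the changes of the members from month 0 to month 1 was 1.27, while in the 6 other CM mice it was between -1.21 and -0.27. In the training Ctrl mice, 0 members passed between months 0 and 1, against 0% of all genes; 2 had an unadjusted p under 0.05, and 0 passed with limma-voom.

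At month 2 in the training cohort, 25 of 33 members were lower in CM mice and none higher, against 6.25% of all genes lower, and the median difference was -0.61 over members and -0.09 over all genes. By role these were 3 of 3 receptor genes, 10 of 13 surface genes, 5 of 8 signalling genes, 6 of 8 transcription genes and Vpreb3. For 23 of the 33 members every CM mouse lay below every Ctrl mouse, where the arms did not overlap, in either direction, for 5.43% of all genes. At month 0 the arms did not overlap for 4 members, against 0.227% of all genes. Vpreb3 ranged from 2.27 to 3.47 with a median of 3.16 log2 CPM in CM mice, against 4.43 to 5.21 with a median of 4.99 in Ctrl mice. Its difference was -1.70 ± 0.15 (adjusted p = 3.77e-05).

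Spib, an Ets factor needed for receptor responses, followed with -1.11 ± 0.14 (adjusted p = 0.00045), and Siglecg, an inhibitory sialic acid receptor, with -1.02 ± 0.17 (adjusted p = 0.00225). Pax5 ranged from 8.11 to 9.29 with a median of 9.06 log2 CPM in CM mice, against 9.71 to 9.97 with a median of 9.85 in Ctrl mice, and differed by -0.89 ± 0.17 (adjusted p = 0.00429). Cd79a ranged from 7.63 to 8.71 with a median of 8.50 in CM mice, against 8.81 to 9.27 with a median of 9.13 in Ctrl mice, and differed by -0.79 ± 0.17 (adjusted p = 0.0108). In both genes the groups did not overlap. Ighm, at 10.37 to 11.46 in CM mice and 11.49 to 11.91 in Ctrl mice, differed by -0.57 ± 0.17 (adjusted p = 0.0467). Btk, at 6.48 to 7.31 in CM mice and 7.17 to 7.53 in Ctrl mice, differed by -0.43 ± 0.13 (adjusted p = 0.0441).

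The 8 members that did not pass at month 2 included 3 that stood near 0 difference or showed the smallest estimates. Cr2 ranged from 7.11 to 8.47 with a median of 8.10 log2 CPM in CM mice, against 7.67 to 8.18 with a median of 7.88 in Ctrl mice, a difference of 0.03 ± 0.19 (adjusted p = 0.951). Rasgrp3, a Ras activator downstream of the receptor, differed by -0.13 ± 0.15, and Pou2af1, the coactivator of Oct factors, by -0.32 ± 0.14 (adjusted p = 0.154). The others were Bank1, Mef2c, Swap70, Ms4a1 and Fcer2a, with estimates between -0.60 and -0.40. Of the 25 members lower at month 2 in the training cohort and the 25 lower at month 1 in the validation cohort, 22 were shared. Lists of these sizes out of 33 share at least 17, so that most of the overlap follows from the list sizes, and it was not tested. Cr2, Ms4a1, Pou2af1, Rasgrp3 and Swap70 passed in neither.

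The count at month 2 was 16 without CM mouse 3334 and 14 without Ctrl mouse 3350, and ranged up to 29 over left-out mice. It was 1 with the mouse as a replicate block over all months, with or without the library group as a term, against 0.0756% and 0.151% of all genes. T cell genes differed in the other direction. All 15 of 15 were higher in CM mice, with a median difference of 1.23 and a summed level of 9.53 to 11.06 log2 CPM, against 8.98 to 9.57 in Ctrl mice. Of all 18508 genes, 1010 were higher. Cd3e was higher by 1.20 ± 0.20 (adjusted p = 0.00228). Of 10 erythroid genes, 6 were higher, with a summed level of 8.65 to 12.60 in CM mice and 8.54 to 10.37 in Ctrl mice. The part of these cell types in the B cell result was not tested.

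**Figure D2:**
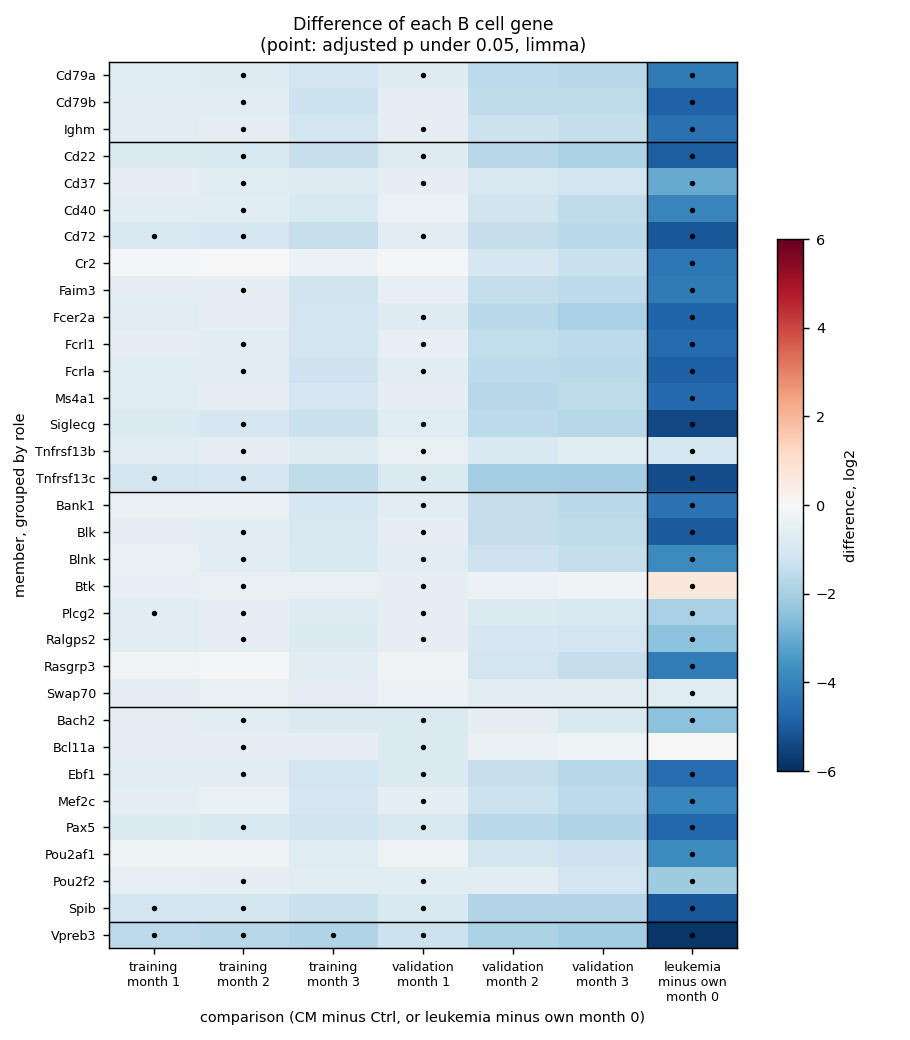
Log2 difference of each of the 33 measured B cell genes in 7 comparisons, as a colour scale, with a point where the adjusted p was under 0.05 (limma-trend). Vpreb3 has the most negative and Cr2 the smallest difference in the training cohort at months 1 to 3 and in the validation cohort at month 1, and in leukemia Btk is above 0 and Bcl11a at 0.00.

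The validation cohort at month 2 showed a larger median difference but a wide spread. The median over members was -1.40, against -0.02 over all genes, and 0 of 33 members passed, against 0% of all genes. Of them 18 had an unadjusted p under 0.05, and 0 passed with limma-voom. Cd79a ranged from 2.96 to 8.06 with a median of 6.21 log2 CPM in 10 CM mice, against 6.81 to 8.25 with a median of 7.46 in 6 Ctrl mice. The 5 CM mice below all Ctrl mice were 2731 at 2.96, 2708 at 3.80, 2719 at 4.52, 2690 at 4.54 and 2718 at 5.56. Kit, the gene of the receptor that marks the leukemic blasts, stood in these mice at 9.02, 6.84, 5.47, 5.23 and 4.47 log2 CPM. The other CM mice had Cd79a of 6.86 to 8.06 and Kit of 2.56 to 4.36, and in the Ctrl mice Kit was 1.16 to 1.87. The largest estimates were those of Tnfrsf13c, -2.06 ± 0.81, and Vpreb3, -1.91 ± 0.69 (adjusted p = 0.435), and the smallest those of Btk, -0.36 ± 0.26, and Bcl11a, -0.39 ± 0.30.

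At month 3 the picture of wide spread was similar in both cohorts. In the training cohort 1 member, Vpreb3, was lower in CM mice, against 0.319% of all genes, while 31 had an unadjusted p under 0.05 and the median difference was -1.03 over members and -0.07 over all genes. Vpreb3 ranged from 0.87 to 3.56 with a median of 2.87 log2 CPM in CM mice, against 4.18 to 5.10 with a median of 4.53 in Ctrl mice, without overlap, and differed by -1.79 ± 0.33 (adjusted p = 0.0227). Mice 3338 and 3357 were the lowest CM mice, with Cd79a of 5.68 and 6.97 and Kit of 6.90 and 7.12, where the 5 other CM mice had Cd79a of 7.97 to 8.44 and Kit of 3.35 to 4.61. Cr2 had the smallest estimate, -0.37 ± 0.33, and Btk the next, -0.44 ± 0.16. The count was 0 without CM mouse 3370 or Ctrl mouse 3335, 3349 or 3350, 3 without CM mouse 3336 and 6 without CM mouse 3338. It was 7 without the sex covariate (1.29% of all genes), 4 with the replicate block over all months (0.319%) and 2 when the library group was added to it (0.249%).

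Of the validation members at month 3, 0 of 33 passed, against 0% of all genes; 8 had an unadjusted p under 0.05, 0 passed with limma-voom, and the median difference was -1.52. With the mouse as a replicate block over all months, 14 members were lower at month 2, against 1.45% of all genes, and 30 at month 3, against 11.7%. Cd79a ranged from 2.24 to 7.95 with a median of 6.82 log2 CPM in 9 CM mice, against 7.59 to 8.07 with a median of 7.71 in 6 Ctrl mice. The lowest CM mice were 2719 at 2.24, with Kit at 10.20, and 2690 at 3.64, with Kit at 8.57. Mouse 2708 had 5.43 at month 3 and 3.80 at month 2, and mouse 2718 had 6.96 and 5.56. The level in a mouse thus did not move one way only, across months of the same strandedness but of different batches.

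At months 4 to 6 no member passed in either cohort. The training counts were 0 of 33 at month 4, 0 at month 5 and 0 at month 6, each against 0% of all genes, with 23, 8 and 10 members at an unadjusted p under 0.05 and 0 with limma-voom at each. The median differences over members were -1.16, -0.43 and -0.83. Vpreb3 had the most negative estimate at each of these months, -1.93 ± 0.39, -0.86 ± 0.39 and -1.77 ± 0.69. With the replicate block over all months 12 members were lower at month 4, against 1.02% of all genes, and 9 at month 6, against 2.87%. With the library group as a further term there were 2 at each, against 0.178% and 1.36%. The validation counts were 0 at months 4, 5 and 6, each against 0% of all genes. At an unadjusted p under 0.05 there were 0, 6 and 1 members, with limma-voom 0 at each, and median differences of -0.57, -0.44 and -0.22. Only 5, 5 and 4 CM mice remained there, and mouse 2700, with the low fusion feature, was among them at each of these months.

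The members did not fall by equal amounts, and 4 ratios between members within a library were followed to describe this. A ratio within a library does not depend on the library scaling. Nor does it depend on how many B cells the library holds, if both genes are read from B cells alone and all carry the same RNA. Bcl11a is not restricted to B cells, so that this condition is not met for Bcl11a over Cd79a. Each was tested in each cohort at months 1, 2 and 3 with a two-sided exact permutation test over mice, adjusted over the 24 tests. The ratios were chosen with earlier results of these data known.

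Vpreb3 over Cd79a was lower in CM mice. For training mice at month 1 it averaged -5.08 ± 0.22 (SD, n = 7) in CM mice and -4.22 ± 0.11 (n = 7) in Ctrl mice on the log2 scale, a difference of -0.86 (exact permutation test, adjusted p = 0.00466). At month 2 the difference was -1.02 and at month 3 it was -0.66 (exact permutation test, adjusted p = 0.00466 each, n = 7 and 7), with every CM mouse below every Ctrl mouse at all 3 months. For validation mice at month 1 the ratio averaged -3.65 ± 0.42 (n = 10) in CM mice and -3.14 ± 0.16 (n = 6) in Ctrl mice, a difference of -0.50 (exact permutation test, adjusted p = 0.0302). That call was lost when any of the Ctrl mice 2683, 2689, 2692 or 2702 was left out, with differences of -0.56 to -0.42 over all left-out mice. At months 2 and 3 the differences were -0.32 and -0.42 (exact permutation test, adjusted p = 0.232 and 0.125). The month 2 difference passed in 1 of 16 tests with a mouse left out. At month 0 the ratio averaged -4.05 ± 0.21 in CM and -4.11 ± 0.16 in Ctrl mice of the training cohort, and -2.41 ± 0.24 in CM and -2.56 ± 0.17 in Ctrl mice of the validation cohort.

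Fcer2a over Cr2 was lower in CM mice in both cohorts at all 3 months. For training mice it averaged 0.19 ± 0.28 in CM mice and 0.70 ± 0.30 in Ctrl mice at month 1, a difference of -0.52 (exact permutation test, adjusted p = 0.0186, n = 7 and 7). It averaged 0.25 ± 0.37 in CM mice and 0.93 ± 0.29 in Ctrl mice at month 2, and -0.08 ± 0.34 in CM mice and 0.78 ± 0.23 in Ctrl mice at month 3, differences of -0.68 and -0.86 (exact permutation test, adjusted p = 0.00874 and 0.00839). For validation mice the differences were -0.72, -0.60 and -0.60 at months 1, 2 and 3 (exact permutation test, adjusted p = 0.00874, 0.00874 and 0.00839, n = 10, 10 and 9 CM mice and 6 Ctrl mice). Every one of these 6 calls held with any single mouse left out. At month 0 the ratio averaged 0.75 ± 0.53 in CM and 1.09 ± 0.27 in Ctrl mice of the training cohort, so that the arms differed there in the same direction, and -0.73 ± 0.16 in CM and -0.81 ± 0.28 in Ctrl mice of the validation cohort. Fcer2a marks follicular B cells more and Cr2 marginal zone B cells more, and which of the cells carried the RNA was not measured.

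**Figure D3:**
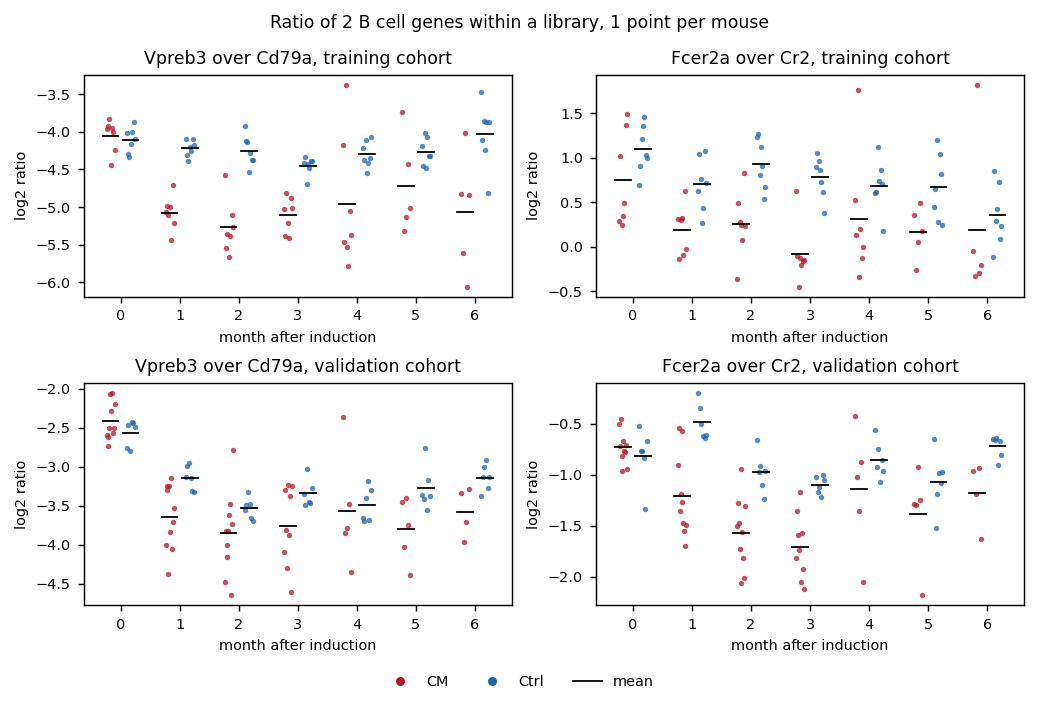
Log2 ratio of Vpreb3 over Cd79a and of Fcer2a over Cr2 within each library at months 0 to 6, for both cohorts, with CM mice left of Ctrl mice and a point for each mouse. Training CM mice at month 2 average -5.27 for Vpreb3 over Cd79a, against -4.25 in Ctrl mice, and 0.25 for Fcer2a over Cr2, against 0.93 in Ctrl mice.

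The other 2 ratios gave 1 call in 12 tests. Mef2c over Cd79a, a factor for B cell growth set against the receptor chain, was higher in training CM mice at month 2 by 0.39 (exact permutation test, adjusted p = 0.0294, n = 7 and 7), averaging -0.14 ± 0.32 in CM mice and -0.52 ± 0.18 in Ctrl mice. It did not pass without Ctrl mouse 3346. In the validation cohort at month 1 Mef2c over Cd79a passed in 1 of 16 tests with a mouse left out. Bcl11a over Cd79a did not pass at any of the 6 tests with all mice. With a mouse left out it passed in 1 of 14 tests in the training cohort at month 2 and in 2 of 14 at month 3. It spread widely in CM mice, from -1.05 to 4.21 in the validation cohort at month 2, against -0.78 to -0.30 in Ctrl mice, and the highest values lay in the mice with most Kit.

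In leukemia nearly all B cell genes were far below the level that the same mice had before induction. In the 6 leukemia libraries (L) of the validation cohort, 31 of 33 members were lower than at month 0, against 33% of all genes, and 1 was higher, against 31.4% of all genes. The median change was -4.36 over the members and -0.05 over all genes. Per mouse the median of the changes of the members was between -5.45 and -3.41. Month 0 and leukemia were different batches, and the part of batch was not tested. The members took 0.0887 to 0.179% of the reads in the L libraries, against 0.817 to 1.63% in all CM libraries of month 0. For 31 of the 33 members the L and month 0 libraries of these mice did not overlap, against 43.8% of all genes, and Swap70 and Bcl11a were the members with overlap.

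The receptor genes fell together. Cd79a stood in the L libraries at 1.94 in mouse 2708, 2.18 in 2719, 2.61 in 2718, 3.45 in 2731, 3.95 in 2690 and 4.17 log2 CPM in 2684, against 6.83 to 7.65 with a median of 7.39 at month 0 in the same mice. Its change was -4.25 ± 0.39 (adjusted p = 4.59e-05). Cd79b changed by -4.84 ± 0.29 and Ighm by -4.46 ± 0.36. Ighm was still at 6.05 to 8.03 in the L libraries, against 10.87 to 11.82 at month 0.

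Among the surface genes all 13 of 13 were lower. Siglecg changed by -5.43 ± 0.41, Tnfrsf13c by -5.32 ± 0.33 and Cd72 by -5.09 ± 0.33. Ms4a1, which codes for CD20, was at 4.39 to 6.78 with a median of 5.45 log2 CPM in L libraries, against 9.63 to 10.51 with a median of 10.16 at month 0, a change of -4.65 ± 0.33 (adjusted p = 1.26e-05). Cr2 and Fcer2a changed by -4.36 ± 0.34 and -4.79 ± 0.38. The smallest change of a surface gene was that of Tnfrsf13b, the receptor TACI for BAFF and APRIL, at -1.05 ± 0.18 (adjusted p = 0.00122). It was at 5.43 to 6.22 in L libraries and at 6.52 to 7.13 at month 0.

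The signalling genes split. Blk, a Src kinase of B cells, changed by -5.00 ± 0.27 (adjusted p = 3.48e-06), Bank1, a scaffold, by -4.44 ± 0.27, and Blnk by -3.83 ± 0.42. Plcg2 changed by -1.93 ± 0.28 and Swap70, which acts on actin, by -0.74 ± 0.17 (adjusted p = 0.00597), at 7.52 to 8.57 log2 CPM in L libraries and 8.27 to 8.78 at month 0, with overlap. Btk was the only member that was higher. It stood at 6.70 to 7.80 with a median of 7.04 in L libraries, against 6.14 to 6.65 with a median of 6.59 at month 0, higher in 6 of 6 mice by 0.33 to 1.23. Its change was 0.62 ± 0.13 (adjusted p = 0.00367).

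Of the transcription genes 7 of 8 were lower. Spib changed by -5.09 ± 0.39, Pax5 by -4.73 ± 0.37 and Ebf1 by -4.55 ± 0.31. Pax5 stood at 2.20 to 5.06 log2 CPM in L libraries, against 7.92 to 8.74 at month 0. Mef2c changed by -3.91 ± 0.23, Bach2 by -2.45 ± 0.25 and Pou2f2, the gene of Oct-2, by -2.14 ± 0.33. Bcl11a did not pass, with a change of 0.00 ± 0.25 (adjusted p = 0.995), at 6.11 to 8.15 with a median of 6.83 in L libraries and 6.44 to 7.21 with a median of 7.05 at month 0. It was above its own month 0 level in 3 of the 6 mice, 2684, 2690 and 2731, and below it in the others.

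Vpreb3 again changed most, by -5.85 ± 0.60 (adjusted p = 7.49e-05), and its few reads show the range. Mouse 2684 had 147 reads in leukemia against 522 at month 0, mouse 2690 had 10 against 358, and mouse 2708 had 8 against 799. Mouse 2718 had 3 reads in leukemia against 582 at month 0, mouse 2719 had 7 against 692, and mouse 2731 had 17 against 450. Mouse 2684, with the most Vpreb3 reads in leukemia, also had the highest Cd79a, 4.17, and the lowest Kit, 8.22, of the L libraries, where the 5 others had Kit of 9.89 to 11.44.

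**Figure D4:**
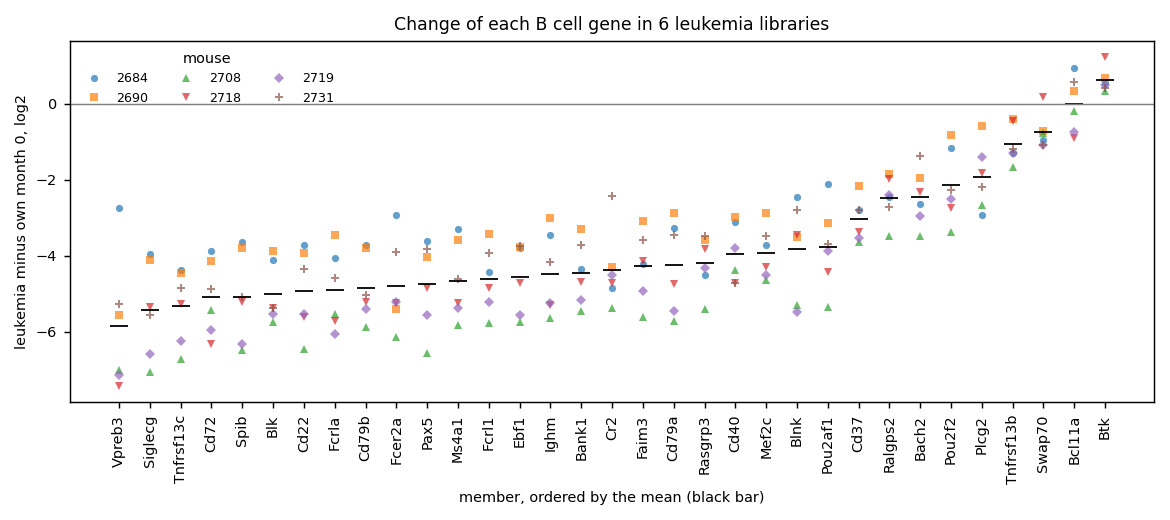
Log2 change of each of the 33 members from month 0 to leukemia in the 6 validation CM mice with an L library, with a point for each mouse. Vpreb3 has the largest mean fall, Bcl11a scatters about 0 and Btk lies above 0 in 6 of 6 mice, by 0.33 to 1.23.

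Set against month 1 of the same mice, the leukemia libraries gave 30 lower members, against 34.1% of all genes lower, and 2 higher members, against 29.2% of all genes higher. Cr2 changed most, by -4.87 ± 0.36, and the higher members were Btk, by 1.20 ± 0.12 (adjusted p = 9.15e-05), and Bcl11a, by 0.61 ± 0.21 (adjusted p = 0.0363). Swap70 did not pass, at -0.36 ± 0.16 (adjusted p = 0.0856). Bcl11a did not pass when mouse 2684, 2690, 2708 or 2731 was left out, nor with quantile normalization or without the replicate block, and the count of higher members was then 1. Other cell types moved as well, where 31.4% of all genes were higher and 33% lower in L than at month 0. Of 14 stem and progenitor genes 8 were higher in L than at month 0 and 4 lower, Kit by 8.84, with a summed level of 10.68 to 12.20 log2 CPM in L libraries and 7.92 to 9.27 at month 0. Of 15 T cell genes 14 were lower and 1 higher, with a median change of -2.20, and of 14 mature neutrophil genes 8 were lower and 1 higher, with a median change of -2.42. Their part in the B cell result was not tested.

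The final training libraries of the CM mice, taken between months 4 and 10, were set against month 0 of the same mice. Of 33 members 31 were lower, against 35.9% of all genes, with a median change of -2.94 over members and -0.57 over all genes. Siglecg changed most, by -3.73 ± 0.39 (adjusted p = 6.59e-05), with Tnfrsf13c at -3.42 ± 0.36 and Ebf1 at -3.42 ± 0.37 next. Btk and Bcl11a did not pass, with changes of -0.08 ± 0.29 (adjusted p = 0.857) and -0.52 ± 0.40 (adjusted p = 0.313). Cd79a in these last libraries was 4.36 in mouse 3338 at month 4, 4.48 in 3334, 5.07 in 3341 at month 6, 5.94 in 3336 at month 7, 6.20 in 3368 at month 10, 6.56 in 3357 at month 4 and 7.30 log2 CPM in 3370 at month 9. At month 0 it ranged from 7.34 to 9.11 over these 7 mice. Kit was 6.61 to 9.45 in all last libraries but that of 3368, which had 2.34, with 21.7% of its reads from globins.

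Late Ctrl libraries were also low in B cell genes, together with most other genes. Between month 0 and month 10, 33 of 33 members were lower in the 7 Ctrl mice, against 72.7% of all genes, with a median change of -2.35 over members and -1.81 over all genes. Per mouse the median of the changes of the members was -0.01 in 3335, the mouse with least globin, and between -3.80 and -1.01 in the others. With a median-ratio scaling 16 members were lower, against 17.6% of all genes, the medians were -0.59 over members and -0.06 over all genes, and the estimates of Btk, Rasgrp3, Ralgps2 and Mef2c turned to 0.06, 0.02, 0.37 and 0.41. Net of the Ctrl change to month 10, the change to the last CM library was lower for 1 member, Mef2c with a difference of -1.25 ± 0.48 (adjusted p = 0.0457; 4.92% of all genes lower), and higher for 2, Btk by 1.60 ± 0.47 and Bcl11a by 1.75 ± 0.65 (33.7% of all genes higher). With a mouse left out, Mef2c did not pass without any of 5 CM and 5 Ctrl mice, and the count of higher members was 0 without CM mouse 3334 or Ctrl mouse 3349 or 3350 and 4 without CM mouse 3368 or Ctrl mouse 3335. That comparison depended on the scaling: 25 members were lower and 0 higher with median-ratio scaling, against 18.6% of all genes lower and 12.4% higher. With quantile normalization 12 were lower and 0 higher, against 12.1% and 14.9% of all genes. The median over all genes was 0.95 as deposited, -0.38 with median-ratio scaling and 0.06 with quantile normalization. The median over the members was -0.23, -1.56 and -1.22 under the same 3 scalings, below the median gene in each.

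**Figure D5:**
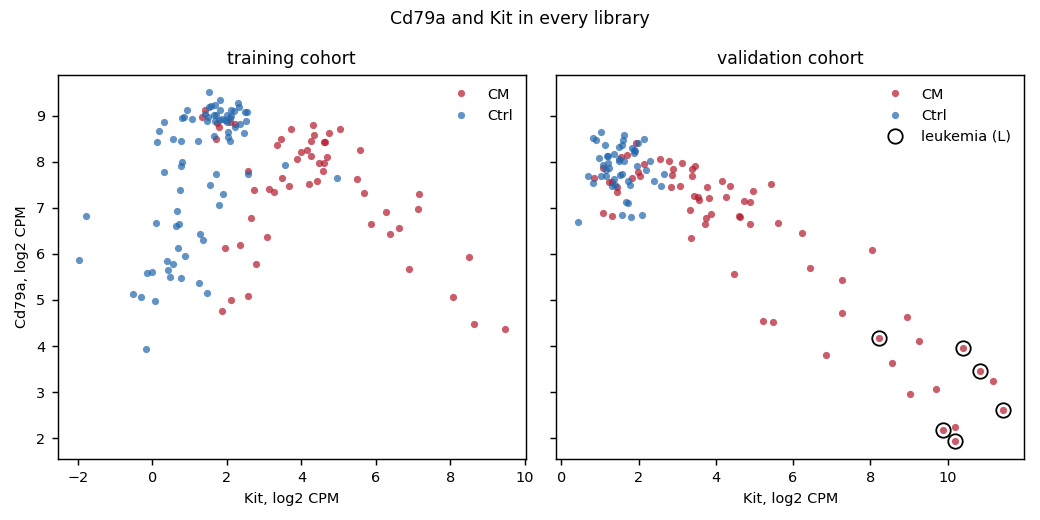
Cd79a against Kit in every library, both in log2 CPM, for each cohort, with CM and Ctrl mice in different colours and L libraries circled. The L libraries combine Cd79a of 1.94 to 4.17 with Kit of 8.22 to 11.44, while Ctrl libraries of the training cohort reach low Cd79a at low Kit, 4.98 to 8.96 with Kit of -0.53 to 0.87 at month 10.

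Of the validation mice, 3 CM mice and 2 Ctrl mice were bled at weeks, with 1 library of a mouse at a time, so that no test was made. In mouse 3200 Cd79a was 7.51, 5.70 and 4.11 log2 CPM at weeks 10, 14 and 18, while Kit was 5.43, 6.44 and 9.27. In mouse 3130 Cd79a was 6.67, 4.63 and 3.24 at weeks 20, 24 and 25, with Kit at 5.62, 8.95 and 11.19. In mouse 3131 it was 6.35, 6.08 and 3.07 at weeks 20, 24 and 28, with Kit at 3.35, 8.05 and 9.70. Cd79a was lower at each later bleeding in all 3, and mouse 3131 at week 24 had high Kit with Cd79a close to its earlier level. The Ctrl mice 3202 and 3127 had Cd79a of 8.31 to 8.65 at weeks 10, 14, 18, 20, 24 and 28, and no Ctrl library stands beside week 25.

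Genes around the members, from lists fixed for this description, were read alongside. The lists of B-1 and marginal zone genes and of plasmacytoid dendritic cell genes were among them, but their results are not given here. Of all genes, 6.25% were lower and 1010 of 18508 higher in training CM mice at month 2. In the validation cohort at month 1, 20.6% were lower and 1082 of 13607 higher. In leukemia 33% were lower than at month 0 and 31.4% higher. Of 19 partners in receptor signalling, 5 were lower in training CM mice at month 2. In the validation cohort at month 1, 10 of 19 were lower and 1 was higher, Cd24a, by 0.63 ± 0.17, a gene that red cell precursors also express. In leukemia 15 of 19 were lower than at month 0, among them Cd81, a tetraspanin, with a change of -4.35, and 2 were higher, Dapp1 by 2.08 and Inpp5d by 0.46. The light chain genes Igkc and Iglc2 were lower in leukemia, with changes of -4.10 and -4.88, both of 2 measured.

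Of the genes for homing and survival 9 of 11 were lower in leukemia and 1 higher. Ccr6 changed by -4.43, Ltb, a lymphotoxin chain that shapes follicles, by -3.98, Ccr7 by -3.64 and Cxcr5, the receptor for the follicle chemokine, by -3.50, while Bcl2 changed by 0.47. Of the genes for precursor B cells 4 of 9 were higher in training CM mice at month 2, Erg by 2.54, Dntt by 1.34, Il7r by 1.32 and Lef1 by 1.22, and Sox4 was lower, with a difference of -1.01. Erg and Sox4 are shared with the stem cell list, and Il7r and Lef1 are also expressed by T cells, all of whose listed genes were higher there. In leukemia 2 of 8 were higher, Erg by 6.71 and Myb by 3.85, and 5 lower, Sox4 with a change of -5.39 and Rag1 with one of -4.66 among them. Of the plasma cell genes 1 of 10 was lower in training CM mice at month 2, near the 6.25% of all genes. This was Sdc1, with a difference of -1.54. In leukemia 4 of 7 were lower, against 33% of all genes, Sdc1 with a change of -4.73 and Igj, the joining chain, with one of -3.51 among them.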

How the data were processed

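The authors deposited a table of log2 CPM for each cohort. The submitters' processing notes name STAR, GRCm38, featureCounts of Subread and edgeR, without versions. The deposited values had a prior of 0.25 reads and no composition factor, and gave whole reads for 100% of values (tolerance 0.01 reads). Each comparison was fitted over all genes with limma 3.58.1 (R 4.3.3) with an intensity trend, and p-values were adjusted over all genes by Benjamini-Hochberg. Arm comparisons used 1 month with sex as a covariate, and comparisons within mice used the mouse as a replicate block, since the labels give the mouse; same-mouse correlations of deviations had a median of 0.10 for leukemia and month 0 and -0.05 for the last training library. Count tests were replaced by limma because the deposited unit is a log scale, and limma-voom on the whole reads was an alternative. Ratios were compared with exact permutation tests (scipy 1.17.1). IDs were named for 87.9% of training and 92.7% of validation genes. Titles of 2 training libraries (CM mice 3334 and 3336) gave month 6.5 where the time label gave month 6, and these were kept out of month 6. Members, lists, named genes and ratios were chosen with earlier results of these data known. Members given in detail were those of a fixed set of 12, and in each comparison the 2 with the largest and the 2 with the smallest log2 fold change. Replicates are separate mice. The fits were tested on simulated data.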

Additional observations from a re-analysis of the deposited data

Results flagged for a closer look

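In 8 of the groups and measures examined (3 measures) a library stood apart from the others of its group, where chance gives about 1 in 20, or 5.1 cases here. In training CM mice at month 0, mouse 3334 had a member median of 6.95 log2 CPM, next to 8.08, and Cd79a of 7.34, next to 8.75. In training Ctrl mice, 3342 had a member median of 7.74 at month 3, next to 8.15, and 3349 had Cd79a of 3.93 at month 8, next to 5.61. In validation Ctrl mice at month 0, mouse 2705 had a member median of 7.20, next to 7.89, and Cd79a of 6.70, next to 7.47. In validation Ctrl mice at month 5, mouse 2689 had a member median of 7.26, next to 7.91, and Cd79a of 7.11, next to 7.81.

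A change over time differed between the arms in 2 comparisons. From month 0 to month 1 in the validation cohort it was lower in CM mice for 28 members, against 8.76% of all genes. From month 0 to the last CM library or Ctrl month 10 in the training cohort it differed for 3 members. Of these 1 was lower, against 4.92% of all genes, and 2 were higher, against 33.7%, and these counts depend on the scaling.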

How the results depend on the processing

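Of 235 alternative values of counts and ratios, left-out mice excepted, 203 stayed on the same side or within 1.5 times and 32 moved; of 1462 values of called members 1311 stayed, 147 lost their call and 4 reversed. With a mouse left out, 1947 of 2216 values of called members stayed and 269 lost their call. The cause was not tested for any of these.

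With the mouse as a replicate block over all months, the counts of lower members were 1, 1, 4, 12 and 9 in the training cohort at months 1, 2, 3, 4 and 6. The shares of all genes lower were 0.276, 0.151, 0.319, 1.02 and 2.87%. With the library group as a term the counts were 1, 1, 2, 2 and 2, against 0.286, 0.0756, 0.249, 0.178 and 1.36% of all genes. In the validation cohort at months 1, 2 and 3 they were 1, 14 and 30, against 2.87, 1.45 and 11.7%. The pairing is by the mouse in the labels. Without the replicate block, 1 member was higher in leukemia against month 1 (30.3% of all genes), and 3 were higher in validation Ctrl mice at month 1 (15.8%). The block changed no other count by over 1.5 times.

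With median-ratio scaling 12 members were lower in the validation cohort at month 1 (7.48% of all genes) and 18 in its change to month 1 (1.87%). In training Ctrl mice at month 10, 16 were lower (17.6%), and in the net training change 25 were lower (18.6%) and 0 higher (12.4%). In validation Ctrl mice at month 1, 3 were lower (15.6%) and 5 higher (15.2%). That scaling turned Btk (0.064), Rasgrp3 (0.021), Ralgps2 (0.366) and Mef2c (0.405) at Ctrl month 10. Quantile normalization gave 12 lower (12.1% of all genes) and 0 higher (14.9%) in the net change, and 1 higher (34.4%) in leukemia against month 1. Without the sex covariate 7 members were lower in the training cohort at month 3 (1.29% of all genes), 1 in its change to month 2 (0.232%) and 2 in the net change (6.68%). The net change had 4 lower against Ctrl month 6, where 1477 of 18508 genes were lower. In validation Ctrl mice 2 members were lower at month 1 with limma-voom, with a prior of 2 reads and with genes above a mean log2 CPM of 1. Of all genes 1196, 1046 and 1018 were lower under these settings.

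With a mouse left out, lower members ranged from 1 to 9, 14 to 29, 0 to 6 and 0 to 1 in the training cohort at months 1, 2, 3 and 5, and from 7 to 29 in the validation cohort at month 1. They ranged from 0 to 3 in the training change to months 1 and 2, and from 0 to 1 lower and 0 to 4 higher in the net change. They ranged from 0 to 2 lower and 3 to 9 higher in validation Ctrl mice at month 1, and 1 to 2 were higher in leukemia against month 1. Ratios of Bcl11a over Cd79a ranged from 0.22 to 0.35 and 0.39 to 0.93 in the training cohort at months 2 and 3, and those of Mef2c over Cd79a from 0.28 to 0.44 (training, month 2) and 0.14 to 0.22 (validation, month 1). Ratios of Vpreb3 over Cd79a ranged from -0.56 to -0.42 and -0.44 to -0.23 in the validation cohort at months 1 and 2. Leaving out mice 2700 and 2731 together, chosen after seeing the data, gave 27 lower members at month 1. The counts with mice left out stand without the share of all genes, so that they do not show whether members moved apart from other genes. The planned ratio of Ighd over Ighm was not run. Depth limits Vpreb3 in leukemia, where 3 to 147 reads were counted.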
